A study of Homo sapiens with 12 samples.

Results

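The 10 genes described here are cyclins and cyclin-dependent kinases (CDKs) of the cell division cycle, taken by name from 54127 genes in the count files, of which 14501 were expressed enough to be tested. All 10 were among the tested genes. They were followed in C4-2 cells, an androgen-independent prostate cancer line derived from LNCaP, after knockdown of CHKA, the kinase that phosphorylates choline in the first step of phosphatidylcholine synthesis. The study asked, among other things, how CHKA bears on tumor growth, and the comparison made here is of the cell cycle transcripts with and without it. Polyadenylated RNA of 12 samples was sequenced as single-end reads, 6 from cells given a pool of siRNAs against CHKA (siCHKA) and 6 from cells given nontargeting siRNA (siNT). Both groups were grown in RPMI medium with fetal bovine serum and were reverse transfected with siRNA at 50 nM using Lipofectamine RNAiMAX. The sample labels speak of RNA from flow sorted cells and give no gate, while the study's methods name a different extraction kit and no sort. Because the siCHKA pool is a single reagent and the line is a single line, every value below belongs to that pool in that line.

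Cyclins are the regulatory subunits that switch CDKs on, and each acts in its own window of the cycle. D-type cyclins with CDK4 and CDK6 act in G1, E-type cyclins with CDK2 carry cells from G1 into S phase, cyclin A serves CDK2 in S phase and CDK1 in G2, and B-type cyclins with CDK1 drive mitosis. In most dividing cells the transcripts of cyclin A and cyclin B are made late in the cycle under the MuvB complex with MYBL2 and FOXM1, which reach DNA at a word called the cell cycle homology region, often beside CCAAT boxes bound by NF-Y, whereas the G1/S genes are controlled by E2F. By these textbook roles the members were put into 3 groups, namely G1 (CCND1, CDK4 and CDK6), G1/S (CCNE1, CCNE2 and CDK2), and S, G2 and M (CCNA2, CCNB1, CCNB2 and CDK1).

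The promoters of the S, G2 and M members, all of which were lower after siCHKA, are shown first, with that of CCNE1, which rose, for comparison. RefSeq promoters of build GRCh38.p14, each of 300 bases from 250 before to 50 after a transcription start, were found for 7 of the 10 genes (CDK4, CDK6, CCNE1, CCNA2, CCNB1, CCNB2 and CDK1). The windows printed are chr15:59104896-59105195 (plus strand) for CCNB2, chr5:69166900-69167199 (plus) for CCNB1, chr4:121823834-121824133 (minus) for CCNA2, chr10:60778228-60778527 (plus) for CDK1, and chr19:29811741-29812040 (plus) for CCNE1. Sequences run 5′ to 3′ along the gene, and capitals mark the words searched on both strands, which were TTTGAA or TTCGAA (the cell cycle homology region), CCAAT (the CCAAT box) and TTTCCCGC, TTTCGCGC, TTTGCCGC or TTTGGCGC (E2F), so that ATTGG is CCAAT on the other strand and TTCAAA is TTTGAA there.
CCNB2: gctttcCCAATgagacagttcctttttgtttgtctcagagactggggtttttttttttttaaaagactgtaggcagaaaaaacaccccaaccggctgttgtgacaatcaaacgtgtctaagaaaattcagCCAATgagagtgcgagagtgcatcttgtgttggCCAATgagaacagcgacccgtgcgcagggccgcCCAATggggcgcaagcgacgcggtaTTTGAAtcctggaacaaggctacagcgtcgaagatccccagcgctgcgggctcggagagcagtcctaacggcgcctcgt
CCNB1: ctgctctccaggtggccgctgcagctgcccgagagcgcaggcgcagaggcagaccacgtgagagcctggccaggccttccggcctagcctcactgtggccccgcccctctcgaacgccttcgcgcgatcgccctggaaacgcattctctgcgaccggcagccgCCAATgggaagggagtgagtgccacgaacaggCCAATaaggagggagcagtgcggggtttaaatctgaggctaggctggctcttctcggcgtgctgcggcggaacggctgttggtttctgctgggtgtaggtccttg
CCNA2: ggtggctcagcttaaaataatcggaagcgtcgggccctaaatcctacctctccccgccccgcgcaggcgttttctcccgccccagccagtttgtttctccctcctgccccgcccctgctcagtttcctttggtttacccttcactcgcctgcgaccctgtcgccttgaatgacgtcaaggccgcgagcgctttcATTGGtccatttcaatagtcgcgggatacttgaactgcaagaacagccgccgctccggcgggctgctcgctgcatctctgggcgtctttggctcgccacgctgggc
CDK1: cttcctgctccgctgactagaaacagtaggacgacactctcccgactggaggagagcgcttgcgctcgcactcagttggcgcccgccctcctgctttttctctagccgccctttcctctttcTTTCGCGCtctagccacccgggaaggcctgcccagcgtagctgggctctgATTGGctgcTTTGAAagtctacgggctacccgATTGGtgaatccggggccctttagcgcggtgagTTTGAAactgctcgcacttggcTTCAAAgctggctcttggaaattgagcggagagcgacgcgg
CCNE1: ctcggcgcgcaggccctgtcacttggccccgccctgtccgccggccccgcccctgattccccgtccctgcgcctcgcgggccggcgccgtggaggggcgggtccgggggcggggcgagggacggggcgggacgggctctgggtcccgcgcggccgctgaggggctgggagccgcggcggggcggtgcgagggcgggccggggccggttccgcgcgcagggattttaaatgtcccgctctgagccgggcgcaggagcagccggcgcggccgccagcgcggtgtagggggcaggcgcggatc
Positions count the start base as +1 and the base before it as -1, and give the leftmost base of each word along the gene. CCNB2, whose transcript fell furthest, held CCAAT at -244, -120, -87 and -54 and TTTGAA at -29, and its last 3 CCAAT words were 33 bases apart. CCNB1 held CCAAT at -87 and -55, a spacing of 32 bases. One CCAAT word stood on the opposite strand of CCNA2 at -56. CDK1 has a pair of start sites in the table, and the window printed, that of the downstream start, held TTTGAA at -69, -13 and, on the opposite strand, +10, CCAAT on the opposite strand at -78 and -46, again 32 bases apart, and TTTCGCGC at -128. The window of its upstream start, chr10:60778081-60778380, held TTTGAA at -161, CCAAT at -150 and the same TTTCGCGC at +20. None of these exact words occurred in the windows of CCNE1, CDK4 (chr12:57752261-57752560, minus) or CDK6. Of all 35116 promoters of this length in the table, 16.4% held at least 1 cell cycle homology word, 34.6% a CCAAT word, 10.8% at least 2 CCAAT words, 3.26% at least 3, and 3.31% an E2F word. Among the 15442 promoters of tested genes these shares were 11.5%, 34.8%, 12.3%, 4.39% and 4.84%. A match is a string of letters and not evidence that a factor was bound. Variants of the words were not searched, so a window without a match, including that of CCNA2 or CCNE1, may still hold such a site.

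Knockdown left little CHKA in any siCHKA library. It ranged from 1.91 to 4.67 CPM (counts relative to library size, scaled by the trimmed mean of M-values, TMM) in siCHKA and from 36.7 to 43.3 CPM in siNT, with a log2 fold change of -3.88 (SE 0.14, adjusted p = 5.89e-13 in edgeR's quasi-likelihood test with Benjamini-Hochberg adjustment over all tested genes, the test behind every adjusted p of a single gene below). Reads counted on genes ranged from 12158361 to 20670479 in siCHKA and from 10685184 to 24246055 in siNT. All 8 prostate epithelial markers given here (KLK2, KLK3, TMPRSS2, FOLH1, SLC45A3, HOXB13, KRT8 and KRT18) exceeded 1 CPM in every sample, with sums of 3479 to 4988 CPM in siCHKA and 4385 to 5841 CPM in siNT. Of 11 markers of other cell types 10 were matched in the files, 7 of them (PTPRC, COL1A2, COL3A1, DCN, KRT5, TP63 and CD3E) lay below 1 CPM in every sample, with CD3E at 0 throughout, and the summed level was 30.5 to 39.7 CPM in siCHKA and 16.6 to 25.3 CPM in siNT, most of it COL1A1. The 3 tested markers went both ways, with COL1A1 at 26.8 ± 2.10 against 15.0 ± 2.33 and CD68 at 4.88 ± 0.74 against 2.98 ± 0.47 CPM higher in siCHKA and VWF at 1.52 ± 0.28 against 3.00 ± 0.58 CPM lower (SD, n = 6), and the part of these differences in the results was not tested. The samples of each group did not spread evenly. The siCHKA replicates 1, 3 and 5 stood apart from 2, 4 and 6 (chi-square per degree of freedom of 2.52 to 10.3 within these sets and 13.6 to 27.3 across them), with no overlap between the sets in 47.5% of tested genes. The siNT replicates 1 to 3 did not overlap with 4 to 6 in 29.4% of tested genes, but were separated less clearly (2.65 to 19.6 within and 9.33 to 34.1 across these sets). Legends of the study's figures speak of biological triplicates for the genes called after CHKA siRNA, and of 6 biological replicates for plotted expression values. The labels name no batch, date or separate cultures for these samples. The p-values below therefore measure the spread between these samples, which may be technical.

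Across the transcriptome 30.1% of tested genes were lower and 32.1% higher after siCHKA at an adjusted p below 0.05, and the median log2 fold change was 0.03. Of the 10 cyclins and CDKs, 8 were lower and 2 were higher. Samples of both groups did not overlap in any of the 10, with 8 lower and 2 higher, against 21.5% of all tested genes without overlap and lower and 19.1% without overlap and higher. By phase, the median log2 fold change was -0.47 for the 3 G1 members, -1.11 for the 3 G1/S members and -1.56 for the 4 S, G2 and M members, a description of few genes with no test between the phases. Single members crossed that order, since CDK1 (-1.01) fell less than CDK2 (-1.26) and CCNE2 (-1.11) and by about as much as CDK6 (-0.99). At least a 2-fold fall was found in 6 of the 10 (CCNE2, CDK2, CCNA2, CCNB1, CCNB2 and CDK1) and in 4.51% of all tested genes. Every kinase of the set was lower, and the 2 members that rose, CCND1 and CCNE1, were both cyclins that act before S phase. In RNA pooled from many cells, a smaller share of cells in S, G2 and M phase and less of these messengers in each such cell cannot be told apart, and the part of the sort that the labels speak of was not tested. The direction of all 10 did not depend on the scaling, although 2 of the scalings tried, by the upper quartile and by total counts, raised all genes by 0.15 in log2 and moved the split of called genes from 51.5% higher to 68.4% and 69.0% higher.

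**Figure D1:**
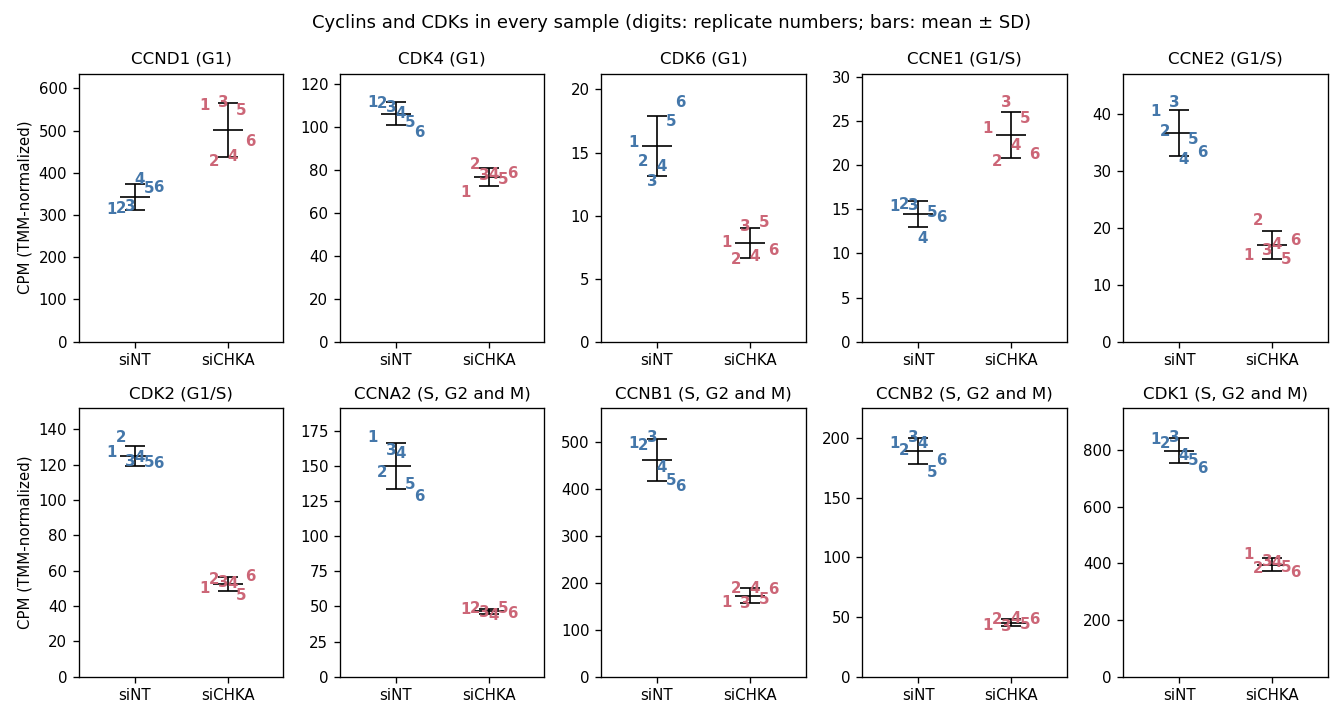
CPM of each of the 10 genes in each of the 12 samples, with siNT in blue and siCHKA in red, digits marking the replicate number and bars the mean ± SD (n = 6); every vertical axis starts at 0. The groups do not overlap in any panel, and only CCND1 and CCNE1 lie higher in siCHKA.

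Among the late members, CCNB2 was the one that fell furthest. CCNB2 (ENSG00000157456) encodes cyclin B2, a partner of CDK1 found at the Golgi apparatus, and lies on chromosome 15 from 59105126 to 59125045 (GRCh38, plus strand). It was measured at a lowest of 41.7, a median of 45.3 and a highest of 48.9 CPM in siCHKA, against 171, 192 and 201 CPM in siNT. The highest siCHKA sample lay far under the lowest siNT sample. The means were 45.2 ± 3.06 and 189 ± 10.9 CPM (SD, n = 6), leaving 23.9% of the siNT level, a log2 fold change of -2.06 (SE 0.06, adjusted p = 2.31e-14 in edgeR's quasi-likelihood test). Only 42 of the 14501 tested genes had a lower log2 fold change.

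CCNA2 (ENSG00000145386, chromosome 4 from 121816444 to 121823883, minus strand) encodes cyclin A2, which is needed for DNA replication and for entry into mitosis. Its lowest, median and highest levels were 43.8, 46.8 and 48.5 CPM in siCHKA and 128, 153 and 171 CPM in siNT. The siCHKA samples were tightly grouped and none came near the siNT range. At 46.5 ± 1.97 against 150.5 ± 16.3 CPM (SD, n = 6) it kept 30.9% of the siNT level, with a log2 fold change of -1.70 (SE 0.07, adjusted p = 1.24e-12).

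CCNB1 (ENSG00000134057, chromosome 5 from 69167135 to 69178245, plus strand) encodes cyclin B1, the main mitotic cyclin, whose destruction lets cells leave mitosis. It spanned 155, 174 and 188 CPM (lowest, median, highest) in siCHKA and 405, 470 and 511 CPM in siNT. Within each group its samples separated along the same divisions, since siCHKA replicates 1, 3 and 5 gave 155 to 164 CPM and replicates 2, 4 and 6 gave 185 to 188 CPM, and siNT replicates 1 to 3 gave 493 to 511 CPM and replicates 4 to 6 gave 405 to 446 CPM. The difference between groups exceeded both splits, with means of 173 ± 15.5 and 462 ± 44.6 CPM (SD, n = 6) and a log2 fold change of -1.42 (SE 0.07, adjusted p = 3.40e-11).

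CDK1 (ENSG00000170312, chromosome 10 from 60778331 to 60794852, plus strand) encodes the mitotic kinase, the catalytic partner of the A- and B-type cyclins. It ran from 367 through a median of 394 to 431 CPM in siCHKA and from 734 through 803 to 846 CPM in siNT. The groups were well separated, although the fall was the smallest of the late members. Means of 395 ± 22.6 and 798 ± 45.0 CPM (SD, n = 6) left 49.5% of the siNT level, a log2 fold change of -1.01 (SE 0.05, adjusted p = 6.31e-11). A lower log2 fold change was found for 640 of the tested genes.

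**Figure D2:**
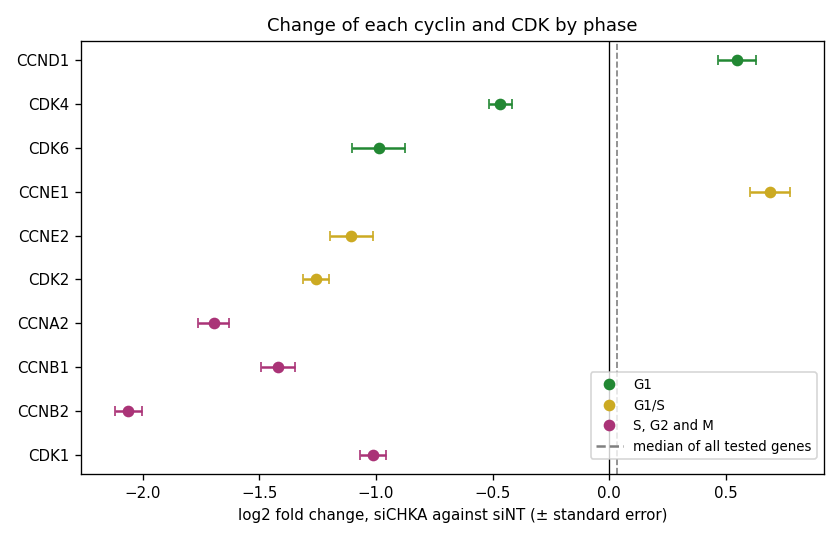
Log2 fold change of siCHKA against siNT (points) with its standard error (bars) for the 10 genes in order of phase, and the median of all 14501 tested genes as a dashed line. All 4 S, G2 and M members lie at -1.01 or lower, while CCND1 and CCNE1 are the only points above 0.

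At the G1/S boundary the members split, since CDK2 and CCNE2 fell while CCNE1 rose. CDK2 (ENSG00000123374, chromosome 12 from 55966781 to 55972789, plus strand) encodes the kinase of cyclin E and cyclin A. It was measured at 45.8, 53.0 and 56.6 CPM (lowest, median, highest) in siCHKA and at 120, 123 and 136 CPM in siNT. No sample of either group lay between 56.6 and 120 CPM. The means were 52.2 ± 3.90 and 125 ± 5.72 CPM (SD, n = 6), leaving 41.8%, with a log2 fold change of -1.26 (SE 0.05, adjusted p = 3.79e-12), the lowest of the 4 kinases.

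The E-type cyclins are close relatives that both activate CDK2. CCNE2 (ENSG00000175305), which encodes cyclin E2, gave 14.4, 16.6 and 21.3 CPM (lowest, median, highest) in siCHKA and 32.0, 36.3 and 42.1 CPM in siNT. CCNE1 (ENSG00000105173, chromosome 19 from 29811991 to 29824312, plus strand), which encodes cyclin E1, gave 20.4, 23.2 and 27.1 CPM in siCHKA and 11.7, 14.9 and 15.6 CPM in siNT. The paralogs thus moved in opposite directions with no overlap in either. CCNE2 fell from 36.7 ± 3.99 to 17.0 ± 2.47 CPM (SD, n = 6; log2 fold change -1.11, SE 0.09, adjusted p = 1.83e-08), while CCNE1 rose from 14.5 ± 1.46 to 23.4 ± 2.58 CPM (log2 fold change 0.69, SE 0.09, adjusted p = 2.32e-06). Per kilobase of exon, CCNE2 was the higher of the pair in siNT (7.28 to 9.58 against 4.75 to 6.33 CPM per kilobase) and CCNE1 the higher in siCHKA (8.28 to 11.0 against 3.28 to 4.85). Exons of INTS8 on the opposite strand cover 37.0% of the CCNE2 exon sequence, and a strand setting of the counting is not given in the sources used here.

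Among the G1 members the cyclin rose and both kinases fell. CCND1 (ENSG00000110092, chromosome 11 from 69641156 to 69654474, plus strand) encodes cyclin D1, which links growth factor signals to phosphorylation of the retinoblastoma protein. Its levels were 427, 511 and 567 CPM (lowest, median, highest) in siCHKA and 314, 342 and 384 CPM in siNT. The lowest siCHKA sample lay above the highest siNT sample, and the sets within each group again separated, at 548 to 567 CPM for siCHKA replicates 1, 3 and 5, 427 to 473 CPM for 2, 4 and 6, 314 to 320 CPM for siNT replicates 1 to 3 and 364 to 384 CPM for 4 to 6. The means of 502 ± 63.5 and 344 ± 30.9 CPM (SD, n = 6) correspond to 146% of the siNT level and a log2 fold change of 0.55 (SE 0.08, adjusted p = 1.82e-05).

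CDK4 (ENSG00000135446, chromosome 12 from 57747727 to 57756013, minus strand) and CDK6 (ENSG00000105810, chromosome 7 from 92604921 to 92836573, minus strand) encode the kinases that cyclin D1 activates. CDK4 was measured at 69.6, 77.7 and 82.3 CPM (lowest, median, highest) in siCHKA and at 97.3, 108 and 111 CPM in siNT. Its fall was the smallest of the 8, from 106 ± 5.48 to 76.8 ± 4.21 CPM (SD, n = 6; log2 fold change -0.47, SE 0.05, adjusted p = 4.30e-07). CDK6 gave 6.55, 7.55 and 9.44 CPM in siCHKA and 12.7, 15.0 and 19.0 CPM in siNT, with at least 117 reads in every sample. It fell to 50.4% of the siNT level, from 15.5 ± 2.37 to 7.83 ± 1.21 CPM (log2 fold change -0.99, SE 0.11, adjusted p = 9.23e-07). TSPAN31 exons on the opposite strand cover 44.2% of the CDK4 exon sequence, the largest such overlap of the 10 genes. A two-sided exact permutation test of log2 CPM gave p = 0.00216 for each of the 10, the smallest that 6 against 6 samples allow.

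Set per kilobase of annotated exon, for an approximate comparison of genes, the order of the levels changed between the groups. In siNT the highest were CDK1 at 204 ± 11.5 and CCNB1 at 190 ± 18.3 CPM per kilobase (SD, n = 6), whose sample ranges of 188 to 216 and 167 to 210 overlapped. CCND1 (72.2 ± 6.49) and CCNB2 (68.6 ± 3.96) followed with overlapping ranges, then CCNA2 (54.8 ± 5.91) with its highest sample at 62.2, level with the lowest of CCNB2. CDK4 (34.3 ± 1.77) and CDK2 (32.2 ± 1.47) overlapped as well, and CCNE2 (8.35 ± 0.91), CCNE1 (5.87 ± 0.59) and CDK6 (1.27 ± 0.19) closed the order with no overlap between neighbours. After siCHKA, CCND1 stood first at 105 ± 13.3 CPM per kilobase, overlapping with CDK1 at 101 ± 5.79. CCNB1 (70.9 ± 6.36) and CDK4 (24.8 ± 1.36) came next, each clear of its neighbours. CCNA2 (16.9 ± 0.72) and CCNB2 (16.4 ± 1.11) overlapped, and CDK2 (13.4 ± 1.00), CCNE1 (9.51 ± 1.05), CCNE2 (3.86 ± 0.56) and CDK6 (0.640 ± 0.099) followed without overlap between neighbours. Exon length here is the union of all annotated exons, which is longer than any one messenger, by an amount that may differ between genes. It comes from another annotation than the counts, and stretches shared with other genes, as in CDK4 and CCNE2, count in full. The order between genes, above all of close neighbours, is therefore approximate.

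The cyclin messengers as a pool were smaller and differently composed. The sum of the 6 cyclins fell from 400 ± 23.0 (369 to 425) CPM per kilobase in siNT to 223 ± 6.85 (215 to 229) in siCHKA. Cyclin D1 supplied 18.2% ± 2.43 of that sum in siNT and 47.1% ± 4.58 in siCHKA (SD, n = 6), the sample ranges being 15.7% to 20.7% and 41.8% to 51.9%. The share of CCNB1 went from 47.4% ± 2.21 to 31.9% ± 3.79, that of CCNB2 from 17.2% ± 0.45 to 7.39% ± 0.72 and that of CCNA2 from 13.7% ± 0.82 to 7.59% ± 0.33. CCNB1 and CCNB2 together exceeded CCND1 in all 6 siNT samples (233 to 283 against 65.9 to 80.8 CPM per kilobase) and in 2 of the 6 siCHKA samples, replicates 2 and 4 (94.3 and 94.6 against 89.7 and 91.9), while CCND1 was the larger in the other 4. The E-type cyclins stayed minor, CCNE1 at 1.47% ± 0.15 and then 4.26% ± 0.36 and CCNE2 at 2.09% ± 0.16 and then 1.74% ± 0.30. Among the 4 kinases, whose sum went from 272 ± 13.9 to 140.1 ± 4.68 CPM per kilobase, composition moved less, with CDK1 at 75.1% ± 0.63 and 72.2% ± 2.00, CDK4 at 12.6% ± 0.15 and 17.8% ± 1.34 and CDK2 at 11.8% ± 0.50 and 9.60% ± 0.83. These sums and shares rest on the same exon lengths and are approximate in the same way. Since shares of a sum are bound to each other, no test was made of them.

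**Figure D3:**
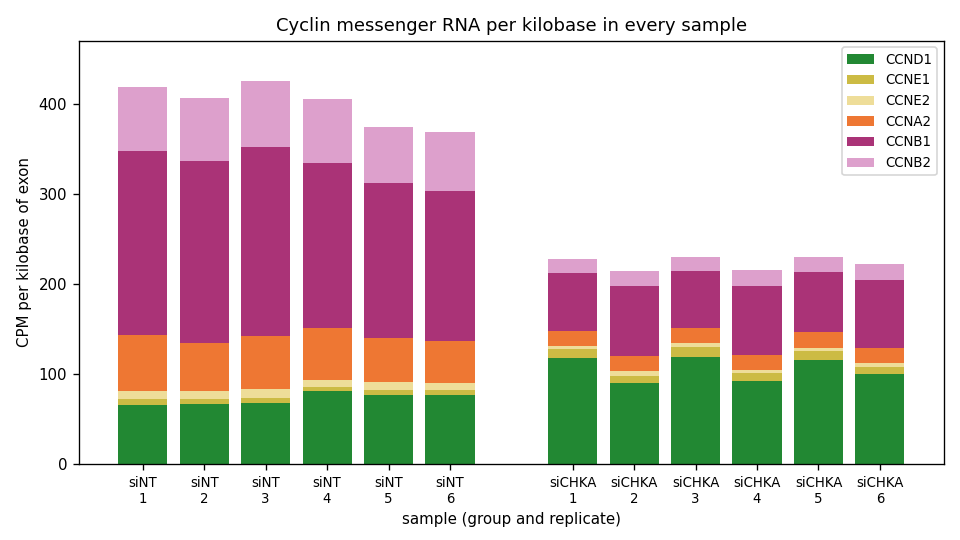
CPM per kilobase of exon of the 6 cyclins, stacked from 0 in each of the 12 samples, with siNT on the left and siCHKA on the right. The total is 369 to 425 in siNT and 215 to 229 in siCHKA, and the segments of CCND1 (green) and CCNE1 are taller in every siCHKA sample than in any siNT sample while those of CCNA2, CCNB1, CCNB2 and CCNE2 are shorter.

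Ratios of 2 members within the same sample do not change with the scaling between samples, and 10 pairs that form complexes or are paralogs were compared with two-sided exact permutation tests, adjusted over the 10 pairs. In 8 pairs the samples of both groups did not overlap and p was 0.00216 (adjusted p = 0.00271), with 6 samples on each side. For CCND1 to CDK4, CCND1 to CDK6, CCNE1 to CDK2 and CCNE1 to CCNE2 this outcome was fixed by the single genes. There the first gene was higher and the second lower in every siCHKA sample than in any siNT sample. The p-values of these pairs therefore add nothing to the levels of the genes. Mitotic cyclins fell by more than their kinase did. The log2 ratio of CCNB2 to CDK1 was -3.13 ± 0.16 in siCHKA and -2.08 ± 0.06 in siNT, a difference of -1.05 (SE 0.07), and those of CCNA2 to CDK1 and CCNB1 to CDK1 differed by -0.67 (SE 0.06) and -0.41 (SE 0.08). The value for CCNB1 to CDK1 was -0.25 with siCHKA replicates 2, 4 and 6 alone and -0.57 with replicates 1, 3 and 5 alone, in the same direction in both. CCNA2 to CDK2 differed by -0.43 (SE 0.09), with the highest siCHKA sample at 0.08 and the lowest siNT sample at 0.09.

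Cyclins of the early cycle rose relative to their kinases. The log2 ratio of CCND1 to CDK4 went from 1.69 ± 0.19 in siNT to 2.70 ± 0.25 in siCHKA (SD, n = 6), which is 2.01-fold, and that of CCND1 to CDK6 rose 2.86-fold (log2 difference 1.52, SE 0.09). The ratio of CCNE1 to CDK2 showed the widest shift, from -3.11 ± 0.15 to -1.16 ± 0.24 in log2, or 3.86-fold. CCNE1 to CCNE2, the ratio of the paralogs, rose 3.49-fold, from -1.34 ± 0.10 to 0.46 ± 0.34 in log2. The other two pairs overlapped between groups. The log2 ratio of CCNE2 to CDK2 differed by 0.15 (SE 0.08, exact permutation p = 0.108, adjusted p = 0.108), which became 0.20 (exact permutation p = 0.026) without siNT replicate 3 and 0.24 (p = 0.0238) with siNT replicates 4 to 6 alone. CDK4 rose relative to CDK6 by 0.51 (SE 0.16, exact permutation p = 0.00649, adjusted p = 0.00722), and this call was lost at p = 0.0714 both with siCHKA replicates 1, 3 and 5 alone (0.28) and with siNT replicates 1 to 3 alone (0.34).

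**Figure D4:**
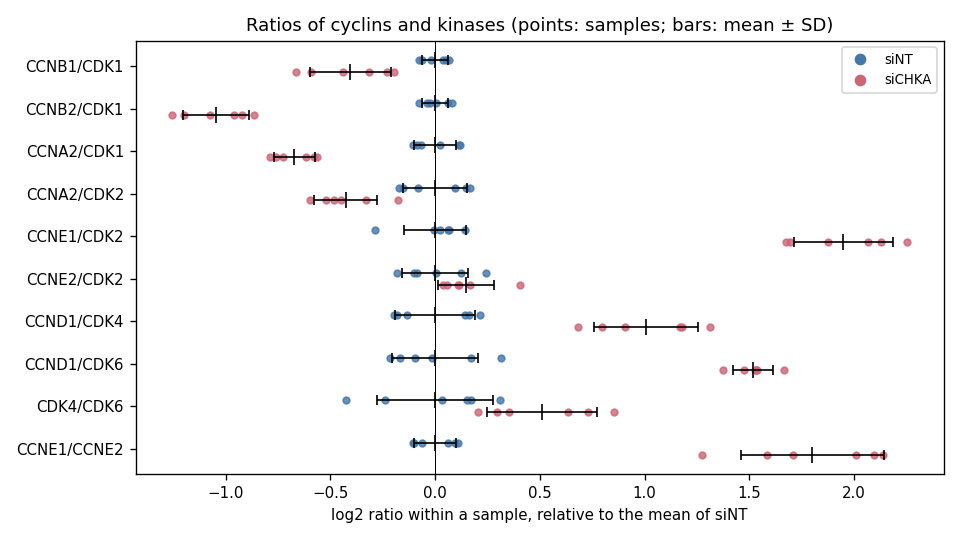
Log2 ratio of 2 members within each sample, relative to the mean of the siNT samples, for 10 pairs, with siNT in blue above and siCHKA in red below, points for samples and bars for the mean ± SD (n = 6). The 4 upper pairs, with CCNA2, CCNB1 and CCNB2, lie lower in siCHKA, those with CCNE1 or CCND1 lie higher, and only CCNE2/CDK2 and CDK4/CDK6 overlap.

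Within the groups some members also varied together and others did not. Of the 10, 7 did not overlap between siCHKA replicates 1, 3 and 5 and replicates 2, 4 and 6, beside the 47.5% of all tested genes. Replicates 1, 3 and 5 were higher in CCND1, CCNE1 (24.2 to 27.1 against 20.4 to 22.3 CPM) and CDK6 (7.85 to 9.44 against 6.55 to 7.25 CPM). They were lower in CCNB1, CCNB2 (41.7 to 43.3 against 47.4 to 48.9 CPM), CCNE2 (14.4 to 16.0 against 17.2 to 21.3 CPM) and CDK4 (69.6 to 77.5 against 77.9 to 82.3 CPM). CDK1, CDK2 and CCNA2 overlapped between these sets. In siNT, 6 of the 10 did not overlap between replicates 1 to 3 and 4 to 6, beside 29.4% of all tested genes, among them CDK1 (824 to 846 against 734 to 783 CPM). All 10 kept their direction and their call with either set alone. Once the group means were removed, deviations of CCNB1 over the 12 samples correlated with those of CCNB2 at r = 0.88 and with those of CCND1 at r = -0.89, CCND1 correlated with CCNE2 at r = -0.85 and with CDK1 at r = -0.05, and these values rest on few samples that share the sets just named. Of the 45 pairs of members 23 had an absolute r under 0.5, among them CDK2 with CDK1 (-0.04), CDK2 with CCNA2 (-0.04) and CCNB2 with CDK1 (0.06).

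The genes most like CCNB1 in pattern, by Pearson correlation of log2 CPM over the 12 samples among genes of at least 10 CPM, were HMMR (r = 0.999), DEPDC1 (0.998), CENPU (0.998), UQCR10 (0.998) and BIRC5 (0.998), with r of 0.92 to 0.96 after removal of the group means. HMMR, a receptor for hyaluronan that also sits on the mitotic spindle, had a log2 fold change of -1.38 (mean 107 against 279 CPM), and BIRC5, the chromosomal passenger protein survivin, one of -1.81 (69.4 against 244 CPM). UQCR10, a small subunit of respiratory complex III, had one of -1.72. Most like CCND1 were CPEB3 (r = 0.989), SUFU (0.988), COPG2 (0.988), TRIM2 (0.988) and PPARA (0.988), with r of 0.95 to 0.96 without the group means and log2 fold changes of 0.61 to 0.82. SUFU restrains GLI transcription factors, and PPARA is a nuclear receptor for fatty acids. These correlations largely follow the difference between the 2 groups and are given as a description.

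Relatives of the members in the same families went both ways. A list of 24 further genes of the cyclin nomenclature had 18 tested. Of these, 5 were lower, 4 higher and 9 not called, beside 30.1% lower and 32.1% higher among all tested genes. Their median log2 fold change was -0.05. Under upper quartile and total count scaling 4 were lower and 6 higher, and the median became 0.10 and 0.11. The list holds CCNB1IP1, a ubiquitin ligase that binds cyclin B1 and is not itself a cyclin, without which 4 were lower and 4 higher. The falls with the smallest p were those of CCNYL1 (log2 fold change -0.78, SE 0.06, adjusted p = 1.14e-08), CCNF (-0.78, SE 0.09), the F-box protein for which that family of ubiquitin ligase subunits is named, and CCNY (-0.43, SE 0.07), a membrane-bound partner of CDK14 and CDK16. Rises were found in CCNB3, a meiotic B-type cyclin at only 3.25 ± 0.48 against 1.27 ± 0.23 CPM (log2 fold change 1.34), in CCNG2, a cyclin linked to arrest, at 199 ± 15.0 against 97.5 ± 24.8 CPM (1.04, adjusted p = 1.42e-06), and in CCNI at 854 ± 79.5 against 595 ± 41.3 CPM (0.52). CCND3, the other D-type cyclin tested, was at 63.3 ± 7.01 in siCHKA and 66.7 ± 4.01 CPM in siNT (log2 fold change -0.08, adjusted p = 0.319). It and CCND2, which was too low to be tested, are named because of their kinship with CCND1.

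Of 22 further CDKs and CDK-like kinases 18 were tested. Of these, 6 were lower, 4 higher and 8 not called, beside 30.1% lower and 32.1% higher among all tested genes. Under upper quartile scaling 4 were lower and 6 higher and under total count scaling 4 and 7, with CDK9 and CDK14 no longer called lower, and the median of -0.08 turned to 0.07 in both. CDK19, a kinase of the Mediator complex, fell from 276 ± 29.6 to 174 ± 6.79 CPM (log2 fold change -0.67, adjusted p = 1.12e-07), and CDK16 and CDK18 fell with log2 fold changes of -0.33 and -0.57. CDKL3 rose by 0.90 in log2 at 5.56 ± 1.09 against 2.99 ± 0.51 CPM, and CDK20 and CDK17 rose by 0.58 and 0.31. The lowest values of these family lists were -0.78 among the cyclins and -0.67 among the kinases, while all 4 S, G2 and M members lay at -1.01 or lower.

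The genes listed as switches and partners of CDKs, not all of them enzymes, moved mostly down. Of 13 such genes 12 were tested. Of these, 8 were lower, 1 higher and 3 not called (median log2 fold change -0.84), beside 30.1% lower and 32.1% higher among all tested genes. Under upper quartile scaling 8 were lower and 2 higher, and under total count scaling 8 and 3, with medians of -0.70 and -0.69. CKS1B, a small protein that docks CDKs to their substrates, fell from 86.7 ± 9.70 to 18.6 ± 1.89 CPM (log2 fold change -2.22, SE 0.08, adjusted p = 5.67e-13). PLK1, the polo-like kinase that promotes mitotic entry, and CDC25C, the phosphatase that activates CDK1, had log2 fold changes of -1.52 and -1.31. These activators did not fall alone, since the inhibitory kinases PKMYT1 (-1.69) and WEE1 (-0.68), which fall outside the rule for named genes and were picked after their values were seen, were also lower. SPDYA, an activator of CDK2 best known in germ cells, was the 1 gene higher under TMM scaling, at 0.94 ± 0.39 against 0.54 ± 0.19 CPM with overlapping samples (log2 fold change 0.79, adjusted p = 0.0263). Its call was lost with DESeq2, with siCHKA replicates 1, 3 and 5 alone, with siNT replicates 1 to 3 or 4 to 6 alone, and without siCHKA replicate 4, siNT replicate 1 or siNT replicate 4.

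Genes that govern the destruction of cyclins, namely the anaphase-promoting complex, SCF ligases and their regulators, gave 19 lower, 6 higher and 7 not called of 32 tested (median -0.30). Among all tested genes 30.1% were lower and 32.1% higher. Under upper quartile or total count scaling 14 of the 32 were lower and 10 higher (median -0.16 and -0.15). SKP2, which targets the CDK inhibitor p27 and cyclin E, fell from 127 ± 4.74 to 26.3 ± 3.13 CPM (log2 fold change -2.27, SE 0.07, adjusted p = 6.23e-14). UBE2C and CDC20, the ubiquitin-conjugating enzyme and the mitotic activator of the anaphase-promoting complex, had log2 fold changes of -1.94 and -1.57. Small rises were found in ANAPC2 (0.22), ANAPC16 (0.38) and FBXW7 (0.39), the last the F-box protein that recognizes cyclin E. The samples of both groups overlapped in FBXW7. Its call was lost with siCHKA replicates 2, 4 and 6 alone and with siNT replicates 4 to 6 alone.

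Of 10 genes for FOXM1, MYBL2, MuvB subunits and NF-Y subunits, 9 were tested. Of these, 8 were lower and 1 was not called (median -0.88), beside 30.1% lower and 32.1% higher among all tested genes. Under upper quartile and total count scaling 7 were lower, and NFYC was not called there. MYBL2 fell from 263 ± 29.4 to 64.4 ± 9.69 CPM (log2 fold change -2.03, SE 0.09, adjusted p = 7.89e-12). FOXM1 fell from 192 ± 13.8 to 71.3 ± 6.78 CPM (-1.43, SE 0.07), and LIN9, a MuvB subunit, from 43.1 ± 2.90 to 16.8 ± 0.58 CPM (-1.36, SE 0.06). NFYA, the DNA-contacting subunit of NF-Y, was the 1 not called, at 52.0 ± 2.32 against 55.7 ± 3.30 CPM (log2 fold change -0.10, adjusted p = 0.105). LIN37 could not be matched to an identifier in the files. All of these lists were drawn up with earlier results of these data known, so their counts describe the lists and are not independent evidence of a direction.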

How the data were processed

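Per the labels and the study's methods, the deposited values are raw counts per Ensembl gene, made by the authors with TopHat 2.0.4 (GRCh37, reads of 40 bases) and HTSeq 0.5.3p9, with 4 tables for each sample. Reads that aligned repeatedly or fell on several genes were not assigned, so genes with near-identical copies or overlapping neighbours are measured less surely, and its strand setting is not given in the sources used here. Counts assigned to no gene made up 33.9% to 39.0% of all counts of a sample and stayed out of library sizes and tests. The 4 files of a sample differed by about as much as sampling noise (chi-square per degree of freedom 0.983 to 1.01) and were summed. In siCHKA replicates 1 and 3 the chi-square test between files gave p = 0.0299 and 0.0287, and in no other sample was it below 0.05. Groups came from the sample labels.

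The summed counts were filtered (filterByExpr), scaled (TMM) and compared between siCHKA and siNT by the quasi-likelihood test of edgeR 4.0.16 (R 4.3.3) with no covariate, Benjamini-Hochberg adjustment over all 14501 tested genes and calls below 0.05. CPM are relative to TMM-scaled library size, log2 CPM uses a prior count of 2, and standard errors were derived from fold change and F statistic. With 10685184 to 24246055 reads on genes, 3 counts correspond to 0.124 to 0.281 CPM, which covers counting error only. Ratios were taken on the log2 CPM scale and compared by exact permutation in Python 3.11.15 (scipy 1.17.1, numpy 2.4.6). Symbols, exon lengths, overlaps and GRCh38 coordinates came from GENCODE release 44, which named 82.8% of identifiers. Promoters came from RefSeq, and protein sequences were not used here. Tested on simulated data with 200 genes changed 2-fold among 14372, edgeR recovered 92.5% with 10 false calls of 195, and DESeq2 1.42.0 recovered 93% with 25 false calls. The simulation changed few genes, as many up as down, and drew every sample independently. In these data 30.1% of tested genes were lower, 32.1% were higher and replicates formed sets. The simulation therefore cannot measure the error of calls under those conditions.

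The 10 members and the lists of related genes were chosen with earlier results of these data known. Named are all members, CHKA, at most 3 genes per list with the smallest p in each direction, and the 5 genes most correlated with CCNB1 and with CCND1 at a mean of at least 10 CPM. Some cell type markers are not reported here. The alternatives were RLE, upper quartile and total count scaling, DESeq2, no filter, a minimum of 10 counts per sample, a replicate block, 1 count file per sample, each sample left out, siCHKA replicates 1, 3 and 5 or 2, 4 and 6 only, a prior count of 0.5 for ratios and, chosen after seeing the data, siNT replicates 1 to 3 or 4 to 6 only. The split of siCHKA also follows sets seen in these data, and no label names either split.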

Additional observations from a re-analysis of the deposited data

Results flagged for a closer look

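In each group of 6 samples the gap of the most extreme sample to its nearest neighbour was divided by the range of the group (Dixon's ratio, taken as high above its 95% critical value), for the level of each member and each ratio. Chance marks about 1 in 20 groups, and 3 of 40 exceeded the value where 2 were expected by chance. The level of CCNE1 in siNT had a ratio of 0.655, because replicate 4 stood at 3.56 log2 CPM and the other samples at 3.83 to 3.97. The CCNE1 to CDK2 ratio in siNT gave 0.663 from the same replicate, at -3.40 in log2 against -3.11 to -2.97 in the others. Both extremes lie on the side away from the siCHKA samples, and CCNE1 kept its direction and its call without replicate 4. The CCNE2 to CDK2 ratio in siCHKA gave 0.652, with replicate 2 at -1.36 in log2 and the others at -1.73 to -1.61. Without that replicate the difference between groups was 0.10 instead of 0.15 in log2, and it was not called with or without it.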

How the results depend on the processing

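All 10 members kept their direction and their call under all 24 alternatives, with log2 fold changes of -2.15 to -1.91 for CCNB2, -1.79 to -1.54 for CCNA2, -1.55 to -1.27 for CCNB1, -1.09 to -0.86 for CDK1, -1.32 to -1.10 for CDK2, -1.26 to -0.95 for CCNE2, -1.17 to -0.81 for CDK6, -0.53 to -0.31 for CDK4, 0.37 to 0.70 for CCND1 and 0.55 to 0.84 for CCNE1. The medians by phase moved by more than the spread between replicates in 8 cases. The G1 median was -0.32 with upper quartile scaling and -0.31 with total counts, and the S, G2 and M median was -1.41 and -1.40 there, where all genes shifted upward. The G1/S median was -0.95 with total counts and -1.26 with siCHKA replicates 1, 3 and 5 only. The S, G2 and M median was -1.67 with siNT replicates 1 to 3 only and -1.46 with replicates 4 to 6 only. Beyond the scaling, the cause of these shifts was not tested. Of 170 ratios under 17 alternatives 166 kept their call, and the 4 that did not, of CCNE2 to CDK2 and CDK4 to CDK6, are given beside those results. The calls of CCND1 to CDK4, CCND1 to CDK6, CCNE1 to CDK2 and CCNE1 to CCNE2 could not change when samples were left out. They were fixed by the levels of the single genes. The number of genes called lower ranged from 2995 (total counts) to 4686 (no filter) and higher from 3413 (1 count file) to 6666 (total counts).

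With the replicate number as a replicate block, 4273 genes were lower and 4494 higher, 8 members were lower and 2 higher, and the medians were -0.47, -1.11 and -1.55. Same-numbered samples did not deviate together (r from -0.40 to 0.32, mean -0.04, against 0.01 for different numbers). No pairing by number was seen, but the sets within each group could hide one, and no label settles it. The depth of 10685184 reads or more left every member with at least 117 reads in each sample. Transcripts with overlapping neighbours, mainly CDK4 and CCNE2, and low genes such as SPDYA and CCNB3 are the least sure.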
